A study of Mus musculus with 36 samples.

Results

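The proteasome subunit genes were taken as all genes whose single platform symbol was Psma, Psmb, Psmc, Psmd or Psme followed by a number, with a mean signal over the 18 arrays of a chip of at least 20% of that chip's 2% trimmed mean. Of 42 genes with such a symbol 40 met this threshold, among 14650 genes that met it on Affymetrix mouse chips 430A and 430B. They comprised 17 core genes (7 Psma and 10 Psmb) and 23 regulatory genes (6 Psmc, 14 Psmd and 3 Psme), measured by 75 probe sets. The 2 genes below the threshold were Psma8, a subunit known from testis, at 4.21% of the trimmed mean, and Psmb11, a subunit known from thymus, at 16.4%. The dimmest genes inside it were Psmd10 and Psmb9, with mean signals of 187.2 and 310.3 against a threshold of 100. A gene with several probe sets was represented by the brightest past the threshold, taken from chip 430A where it had one there. All 40 representatives therefore lay on chip 430A. A probe set with 2 symbols, Psme2 and Psme2b, was no member, so Psme2 is not described.

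The RNA came from heart tissue of 18 individual male mice that all carried 2 transgenes, given in the labels as Tet-myrAkt1/?MHC-tTA, in which 1 character of the promoter's name is not legible. Akt1 is a growth-promoting kinase downstream of the insulin receptor, its myristoylated form is anchored in the membrane and stays active, and tTA is the tetracycline-controlled activator. The cardiac alpha myosin heavy chain promoter is widely used for this purpose and is active in heart muscle cells. The groups were 4 hearts before Akt1 induction (12 weeks of age), 4 hearts after 2 weeks of induction (14 weeks), 4 hearts after 2 weeks of induction and 2 days of repression (14 weeks and 2 days), 3 hearts after 6 weeks of induction (18 weeks), and 3 hearts after 6 weeks of induction and 2 weeks of repression (20 weeks). Age therefore rose with the schedule, the mice kept their own Akt1 gene, and hearts without the transgenes were not analysed here.

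The proteasome is the barrel-shaped protease that degrades proteins tagged with ubiquitin. Its core is built of outer rings of alpha subunits (Psma genes), which gate the entrance, and inner rings of beta subunits (Psmb genes), some of which carry the cutting sites. The regulatory particle that caps the core holds a ring of ATPases (Psmc genes), which unfold the substrate. It also holds a set of other subunits (most Psmd genes), which bind ubiquitin, remove it and form the lid, while Psme genes encode alternative caps. Psmd5, Psmd9 and Psmd10 act as chaperones of proteasome assembly and were counted with the regulatory genes by their symbols. In heart muscle, protein content is set by synthesis and degradation together, and the proteasome is one of the main routes of degradation.

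The array data were deposited as MAS5 signals, and signals of different probe sets are not comparable as levels. Median signals of the chip 430A arrays lay between 183 and 232. A probe set of Akt1 that responds to the transgene had a signal of 548 ± 69.7 (SD, n = 4) before induction. It gave 2880 ± 646 (n = 4) at 2 weeks of induction and 718 ± 21.8 (n = 4) after 2 days of repression. At 6 weeks of induction it gave 2360 ± 542 (n = 3), and after 2 weeks of repression 753 ± 106 (n = 3). Another Akt1 probe set did not rise with induction. Its log2 change from the hearts before induction was -0.232 at 2 weeks (limma adjusted p = 0.382). At 6 weeks this other probe set was called lower, at -0.537 (limma adjusted p = 0.0236). Of the 9 cardiomyocyte markers on the list, all 9 were measured in every group, with summed signals of 141800 to 288400 per heart. Hearts 3 and 4 before induction stood apart: their signals for Xist, the RNA of the inactive X chromosome, were 5412 and 3271, against 136.2 to 289.2 in the other 16 hearts, which goes against the label male. Heart 3 at 6 weeks of induction also stood apart. In it the Actb probe set at the 3′ end gave 3.71 times the signal of that at the 5′ end, against 0.952 to 1.92 in the other hearts. For the calls of the 40 genes by their representative probe sets, comparisons that rest on these hearts are given with and without them. Scores, other probe sets, counts by probe set and genes of the marker and pathway lists are given with all 18 hearts only. Since whole hearts were measured, fewer cells of a type and less RNA per cell cannot be told apart.

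By their representative probe sets, the core genes as a group were higher in both sets of hearts taken during induction. They were near the starting level in both sets taken after repression. A score per heart, the mean log2 difference of the 17 core genes from the mean before induction, ran from -0.106 to 0.0928 before induction, from 0.228 to 0.316 at 2 weeks of induction, from -0.153 to -0.0222 after 2 days of repression, from 0.202 to 0.278 at 6 weeks of induction and from -0.116 to -0.00551 after 2 weeks of repression. All 7 hearts taken during induction thus lay above all 11 others. The score of the 23 regulatory genes ran from -0.063 to 0.0991, from 0.144 to 0.185, from 0.0184 to 0.136, from 0.0899 to 0.202 and from 0.0673 to 0.191 in the same order. On that score the hearts at 2 weeks of induction lay above those after 2 days of repression, while the hearts at 6 weeks of induction and those after 2 weeks of repression overlapped. The scores are descriptions of the hearts and were not tested. They use the representative probe sets only, and other probe sets of the same genes did not always move with these.

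**Figure D1:**
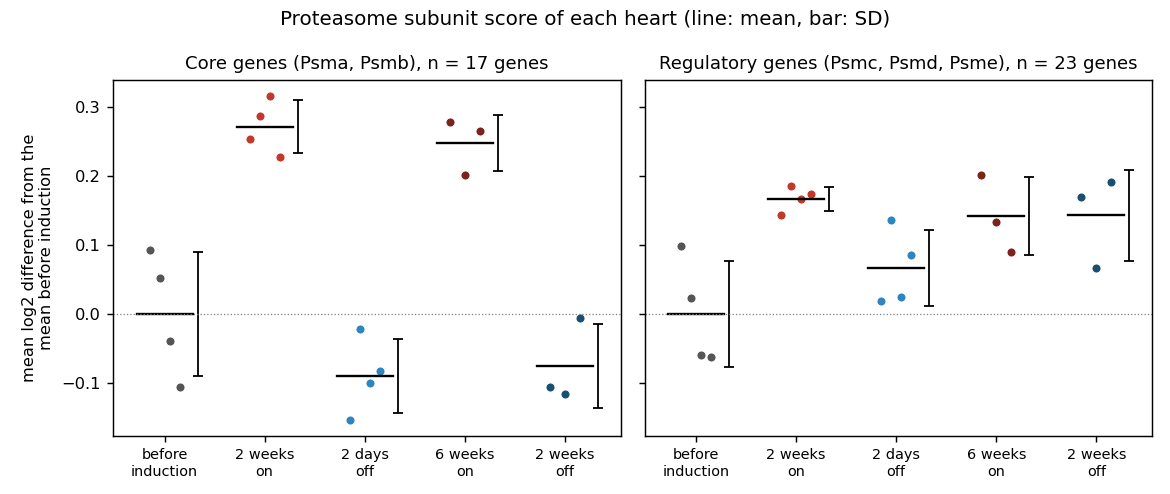
Score of each heart for the 17 core genes and the 23 regulatory genes by their representative probe sets, as the mean log2 difference from the hearts before induction. Each point is 1 heart, the line is the group mean and the bar its SD. The core score of the induced hearts lies between 0.202 and 0.316, above every heart of the other groups, and the regulatory scores of the late groups overlap.

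Of the 40 genes, 5 were called higher in both comparisons of induction with the hearts before it and lower in both repression comparisons: Psma6 of the alpha ring, Psmb3 and Psmb6 of the beta ring, the ATPase Psmc4, and Psmd14, the lid enzyme that removes ubiquitin chains. Both induction comparisons share the hearts before induction, and each induced group serves in 2 comparisons, so these calls are not independent of one another. The same pattern of 4 calls was met by 0.724% of all 14650 genes and by 1.05% of the 9276 genes on chip 430A, beside 12.5% of the 40. These shares rest on all 18 hearts. Without both hearts with Xist signal, Psmd14 was the only 1 of these 5 genes called at 2 weeks of induction. The stretch of 120 bases before each start of these genes is shown because these are the genes called in all 4 of these comparisons. The sequences are RefSeq's (build GRCm38.p6), written 5′ to 3′ on the strand of the gene, and capitals mark the motifs searched.
Psma6 upstream start chr12:55384102-55384221, plus strand: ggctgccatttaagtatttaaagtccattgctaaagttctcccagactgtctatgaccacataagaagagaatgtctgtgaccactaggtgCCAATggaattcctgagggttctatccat
Psma6 downstream start chr12:55398705-55398824, plus strand: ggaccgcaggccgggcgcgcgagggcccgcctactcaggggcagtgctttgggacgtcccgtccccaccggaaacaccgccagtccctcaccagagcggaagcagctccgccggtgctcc
Psmb3 chr11:97703314-97703433, plus strand: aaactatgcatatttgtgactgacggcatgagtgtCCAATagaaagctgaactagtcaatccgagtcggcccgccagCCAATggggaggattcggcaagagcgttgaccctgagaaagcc
Psmb6 chr11:70525237-70525356, plus strand: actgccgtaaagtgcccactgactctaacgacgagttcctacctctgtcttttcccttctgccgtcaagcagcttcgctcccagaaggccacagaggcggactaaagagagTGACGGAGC
Psmc4 chr7:28050093-28050212, minus strand: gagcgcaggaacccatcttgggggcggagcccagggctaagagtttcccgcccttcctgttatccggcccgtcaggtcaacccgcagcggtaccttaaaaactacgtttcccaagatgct
Psmd14 chr2:61711574-61711693, plus strand: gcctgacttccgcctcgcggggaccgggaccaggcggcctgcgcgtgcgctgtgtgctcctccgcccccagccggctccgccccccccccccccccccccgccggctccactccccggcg
The motifs searched on both strands, in 250 bases before to 50 bases after each start, were TGACNNNGC (the core of the antioxidant response element that Nfe2l1 and Nfe2l2 bind), CCAAT (bound by NF-Y) and TGTTTAC (bound by FoxO factors), none of which contains another. RefSeq's table held 36 promoters for 34 of the 40 genes. TGACNNNGC was found in 6 of the 36 promoters (16.7%) and in 12.4% of all 32851 promoters of the table. CCAAT was found in 13 of 36 (36.1%), in 7 of 15 core promoters (46.7%) and in 6 of 21 regulatory promoters (28.6%), beside 37.4% of all promoters. TGTTTAC was found in 0 of 36, beside 3.65% of all promoters. Psmb3 held CCAAT at 2 places in the window shown, and Psmb6 held a TGACNNNGC match directly before its start. Outside the 120 bases shown, Psmd14 held CCAAT matches at positions -159, 4 and 7 from its start, and the upstream Psma6 start held 1 at -136. These matches describe the letters of the promoters and were not tested.

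At 2 weeks of induction, 9 of the 40 genes rose and 0 fell relative to the hearts before induction (limma, Benjamini-Hochberg adjusted p under 0.05 over all probe sets of the chip). Of all 14650 genes 3.69% were called higher and 2.9% lower, and of the 9276 genes on chip 430A 4.67% and 4.17%. The risers were 6 of 17 core genes and 3 of 23 regulatory genes. The median log2 change was 0.34 over the core genes and 0.18 over the regulatory genes, beside -0.02 over all genes. Changes were positive for 29 of the 40 genes and ran from -0.39 to 0.76, and 20 had an unadjusted p under 0.05.

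Psmd14 gave the lowest adjusted p of the 40 genes. Its signals were 1714, 1780, 1432 and 1645 before induction and 2458, 3099, 2873 and 2680 at 2 weeks. The lowest induced heart lay well above the highest heart before induction, and the log2 change was 0.74 ± 0.10 (SE; limma adjusted p = 0.000158).

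Psme4, which encodes a single-chain cap of the core, gave 3490, 2488, 2640 and 2440 before induction and 5882, 4368, 4443 and 4158 at 2 weeks. All 4 induced hearts lay above the 4 earlier ones, and the log2 change was 0.76 ± 0.13 (limma adjusted p = 0.00154). Psmc4 gave 1068, 912.5, 898.1 and 876.7 before induction and 1303, 1520, 1429 and 1448 at 2 weeks, again with no overlap, a log2 change of 0.58 ± 0.12 (limma adjusted p = 0.00415).

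In the alpha ring, Psma2 rose by 0.55 ± 0.11, Psma7 by 0.48 ± 0.11 and Psma6 by 0.50 ± 0.15 on the log2 scale (limma adjusted p = 0.00499, 0.012 and 0.0395). The Psma6 signals were 3740, 3767, 3761 and 3356 before induction and 5951, 4534, 5358 and 4999 at 2 weeks, so that the groups did not overlap. In the beta ring, Psmb1 rose by 0.54 ± 0.14 and Psmb3 by 0.68 ± 0.18 (limma adjusted p = 0.0184 and 0.0246). Psmb3, a structural subunit, gave 2469, 2611, 2404 and 2067 before induction against 5220, 3344, 3722 and 3314 at 2 weeks, where heart 1 was far above the other 3 induced hearts.

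Among the subunits that carry cutting sites, Psmb6 (the caspase-like site) rose, from signals of 2970, 2832, 2749 and 2694 to 4410, 3418, 3676 and 3673. Its groups did not overlap, and the log2 change was 0.42 ± 0.10 (limma adjusted p = 0.0156). Psmb5 (the chymotrypsin-like site) and Psmb7 (the trypsin-like site) had log2 changes of 0.21 and 0.20 with limma adjusted p = 0.249 and 0.302, and were not called. Their inducible counterparts, which replace them in the immunoproteasome, were not called either: log2 changes were 0.14 for Psmb8, -0.13 for Psmb9 and -0.39 for Psmb10 (limma adjusted p = 0.654, 0.67 and 0.0924).

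The calls at 2 weeks rested in part on the hearts with Xist signal. Without both of them 2 of the 9 genes, Psmd14 and Psme4, were called, with log2 changes of 0.65 and 0.65 (limma adjusted p = 0.0091 and 0.0454), and all 9 kept their direction. The core median was then 0.33 and the regulatory median 0.09. With any 1 of the 18 hearts left out, Psma2, Psma7, Psmc4, Psmd14 and Psme4 stayed called; Psmb1 lost its call without heart 3 or 4 before induction (highest limma adjusted p = 0.066), Psmb3 without either of these or heart 1 or 3 at 2 weeks (0.0869), Psmb6 without heart 1 at 2 weeks (0.0543), and Psma6 in 8 of the 18 cases (0.11). Of 9 fibroblast markers 5 were higher at 2 weeks, and their summed signal per heart was 30450 to 38910 before induction and 37020 to 47890 at 2 weeks; their part in the result was not tested.

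After 2 days of repression, 15 of the 40 genes fell and 0 rose relative to 2 weeks of induction. Of all genes 5.36% were called lower and 5.23% higher, and of those on chip 430A 7.87% and 7.36%. The fallers were 10 of 17 core genes and 5 of 23 regulatory genes. The median log2 change was -0.41 over the core genes and -0.09 over the regulatory genes, beside -0.00133 over all genes. The hearts with Xist signal are in neither group, and without them the same 15 genes were called. The Actb 3′ to 5′ ratio separated these groups, at 1.26 to 1.92 in the induced and 1.04 to 1.18 in the repressed hearts, and with it as a covariate 14 genes were lower and 0 higher.

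Psmd14 fell to 1515, 1712, 1592 and 1672, back among the values before induction and below every heart at 2 weeks (log2 change -0.75 ± 0.10, limma adjusted p = 0.000121). Psmb3 had the largest fall of the 40 genes, to 1639, 2065, 1944 and 2140 (-0.97 ± 0.18, limma adjusted p = 0.00161). Psma6 gave 2782, 3197, 3250 and 2862 (-0.77 ± 0.15, limma adjusted p = 0.00179), and Psmb6 gave 2367, 2830, 2527 and 2574 (-0.55 ± 0.10, limma adjusted p = 0.00174). In each of these genes all 4 repressed hearts lay below all 4 induced hearts.

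Of the 7 alpha ring genes 6 fell, the exception being Psma4, with a log2 change of -0.18 (limma adjusted p = 0.314). Psma5 gave 2479, 2336, 2420 and 2670 at 2 weeks and 2038, 1981, 1013 and 1386 after 2 days, with a wide spread among the repressed hearts (-0.66 ± 0.20, limma adjusted p = 0.0239). Psma2, Psma7 and Psma3 fell by 0.56, 0.54 and 0.41 on the log2 scale, and Psma1 by 0.40 with overlapping hearts (limma adjusted p = 0.00282, 0.00335, 0.00584 and 0.0313). Psmb1 fell by 0.64 ± 0.14 (limma adjusted p = 0.00395). Psmb8, the inducible chymotrypsin-like subunit, gave 492.6, 608.4, 549.5 and 477.1 at 2 weeks and 360.8, 332.2, 368 and 374.2 after 2 days. Its groups did not overlap (-0.50 ± 0.17, limma adjusted p = 0.0396). Psmb5, Psmb7, Psmb9 and Psmb10 were not called, with log2 changes of -0.10, 0.20, 0.02 and 0.15.

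Among the ATPases, Psmc4 gave 947.7, 1218, 987.2 and 983.7 after 2 days, with heart 2 above the other 3 and all 4 below the induced hearts (-0.45 ± 0.12, limma adjusted p = 0.0117). Psmc2 and Psmc3 fell by 0.47 ± 0.14 and 0.35 ± 0.10 on the log2 scale (limma adjusted p = 0.0234 and 0.0177). Psmd12, a lid subunit, fell by 0.36 ± 0.10 (limma adjusted p = 0.0206). The caps did not follow: Psme4 stayed at 3865, 4964, 4302 and 4488, a log2 change of -0.09 from 2 weeks (limma adjusted p = 0.691), and the changes of Psme1 and Psme3 were -0.00464 and -0.21 (0.987 and 0.332).

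With any 1 heart left out, 9 of the 15 genes stayed called: Psma2, Psma3, Psma6, Psma7, Psmb1, Psmb3, Psmb6, Psmc4 and Psmd14. Psmc3 lost its call without heart 4 after 2 days (limma adjusted p = 0.0574), Psmd12 without heart 3 or 4 at 2 weeks or heart 3 after 2 days (highest 0.0729), and Psma5 without heart 1 or 4 at 2 weeks or heart 3 or 4 after 2 days (0.0916). Psmc2 lost its call in 5 of the 18 cases, Psma1 in 6 and Psmb8 in 7, each time with a heart of these groups left out and a limma adjusted p of up to 0.0962. Of 15 measured leukocyte markers 2 were higher after 2 days of repression (Lyz2 by 0.73 and Tyrobp by 0.58 on the log2 scale), and their summed signal per heart was 8826 to 9560 at 2 weeks and 10040 to 14810 after 2 days; their part in the result was not tested.

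Against the hearts before induction, 2 of the 40 genes were higher after 2 days of repression and 0 lower, beside 2% and 1.81% of all genes. Psme4 was still up by 0.67 ± 0.13 (limma adjusted p = 0.00672). Psmb7 gave 9752, 8704, 8000 and 8292 before induction and 10250, 11830, 11440 and 12630 after 2 days, with no overlap (0.41 ± 0.11, limma adjusted p = 0.0432), and was the only core gene above its starting level by this test. Without the hearts with Xist signal neither was called. With single hearts left out Psme4 stayed called in all 18 cases, while Psmb7 lost its call in 9, among them each of hearts 2, 3 and 4 of both groups (highest limma adjusted p = 0.125).

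**Figure D2:**
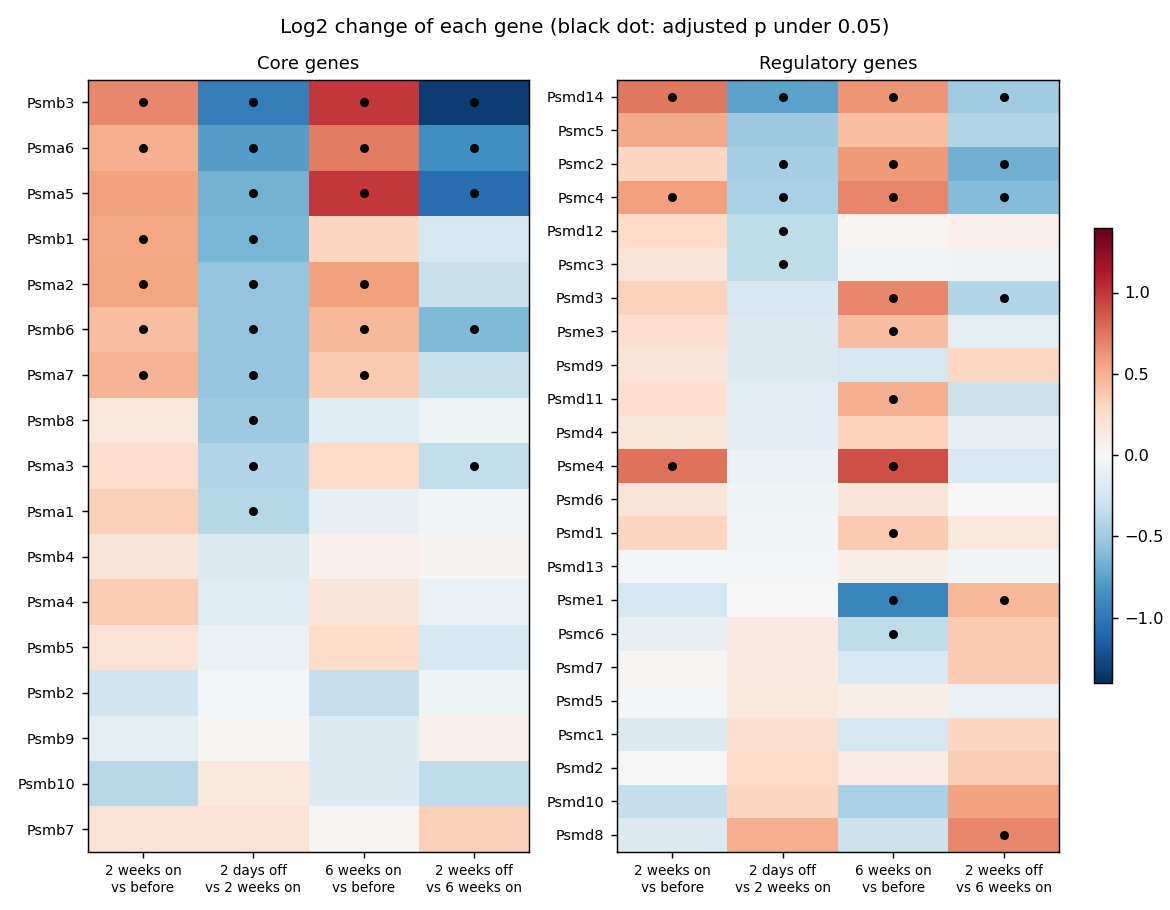
Log2 change of each of the 40 genes in both induction and both repression comparisons, core genes and regulatory genes in separate panels, red for higher and blue for lower; a black dot marks an adjusted p under 0.05. The 5 genes with a dot in all 4 columns are Psma6, Psmb3, Psmb6, Psmc4 and Psmd14.

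At 6 weeks of induction, 14 of the 40 genes rose and 2 fell relative to the hearts before induction, beside 7.58% and 8.14% of all genes and 9.34% and 11.7% of the genes on chip 430A. The core count was 6 higher and 0 lower of 17, and the regulatory count 8 higher and 2 lower of 23. The median log2 change was 0.25 over the core and 0.12 over the regulatory genes, beside -0.05 over all genes. When arrays were scaled to a common median instead, the median over all genes moved to 0.12 and those of the core and regulatory genes to 0.46 and 0.32. With quantile normalization the 3 medians were 0.02, 0.13 and 0.11.

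In the core, Psmb3 gave 3638, 4093 and 7342 at 6 weeks (0.99 ± 0.20, limma adjusted p = 0.00164) and Psma6 gave 4729, 5262 and 8880 (0.72 ± 0.16, limma adjusted p = 0.00363). Both groups lay above every heart before induction, and in both genes the top value was heart 3, the heart with the high Actb ratio. Without that heart the log2 changes were lower and the genes were still called, at 0.69 for Psmb3 and 0.45 for Psma6, the lowest values with any 1 heart left out. Psma5 gave 2058, 1854, 1755 and 1117 before induction and 3310, 2897 and 3893 at 6 weeks, with no overlap (0.99 ± 0.21, limma adjusted p = 0.00286). Psmb6 gave 3717, 3603 and 4469 (0.47 ± 0.11, limma adjusted p = 0.00608). Psma2 and Psma7 rose by 0.57 ± 0.12 and 0.37 ± 0.12 (limma adjusted p = 0.00297 and 0.0368). The remaining catalytic subunits were not called: log2 changes were 0.25 for Psmb5, 0.02 for Psmb7, -0.17 for Psmb8, -0.19 for Psmb9 and -0.19 for Psmb10.

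In the regulatory particle, Psmd14 gave 2559, 2650 and 2435 at 6 weeks (0.62 ± 0.11, limma adjusted p = 0.000654) and Psmc4 gave 1695, 1646 and 1302 (0.69 ± 0.12, limma adjusted p = 0.000886). Psmd3, a lid subunit, gave 1548, 1129, 1256 and 1197 before induction and 1852, 1920 and 2436 at 6 weeks (0.67 ± 0.13, limma adjusted p = 0.0018). The groups did not overlap in any of these genes. Psmc2 rose by 0.60 ± 0.15, Psmd11 by 0.50 ± 0.13 and Psmd1, a large scaffold subunit, by 0.37 ± 0.13 (limma adjusted p = 0.00779, 0.0114 and 0.0476). The ATPase Psmc6 fell by 0.36 on the log2 scale (limma adjusted p = 0.0443), with signals of 1781, 1690 and 1362 below those of 2060, 2326, 2033 and 1856 before induction.

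The caps moved in opposite directions. Psme4 gave 5768, 4611 and 5162 at 6 weeks (0.90 ± 0.14, limma adjusted p = 0.000286), and Psme3, the nuclear cap subunit, gave 631.2, 637 and 618.4 against 532.3, 429.6, 422.4 and 435.7 before induction (0.43 ± 0.15, limma adjusted p = 0.0482). Psme1, a subunit of the interferon-inducible cap that works with the immunoproteasome, gave 3336, 3229, 3415 and 3664 before induction and 1994, 1728 and 1670 at 6 weeks. The 3 induced hearts lay far below, and the log2 change of -0.91 ± 0.13 had the lowest adjusted p of the 40 genes in this comparison (limma adjusted p = 0.000102). Against 2 weeks of induction, where Psme1 gave 2678, 3454, 3081 and 2380, it was lower too (log2 change -0.66 ± 0.13, limma adjusted p = 0.00516). It was the 1 gene of 40 called between 6 and 2 weeks of induction, beside 2.82% of all genes called lower and 2.35% called higher.

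Without both hearts with Xist signal 9 of the 16 genes stayed called at 6 weeks (Psma2, Psma5, Psma6, Psmb3, Psmc4, Psmd14, Psmd3, Psme1 and Psme4), and all 16 kept their direction, with medians of 0.17 over the core and 0.12 over the regulatory genes. Without heart 3 at 6 weeks 12 stayed called, and Psma7, Psmc6, Psmd1 and Psme3 did not. When all 3 of these hearts were left out, a setting chosen after seeing the data, 4 genes were called. With any 1 of the 18 hearts left out 12 of the 16 genes stayed called, the same 12 as without heart 3; Psma7 lost its call in 3 cases (hearts 3 and 4 before induction and heart 3 at 6 weeks, highest limma adjusted p = 0.22), Psmc6 in 11, Psmd1 in 13 and Psme3 in 14. Of 9 endothelial markers 4 were lower at 6 weeks, with summed signals per heart of 6767 to 9423 against 9247 to 11000 before induction. Of 9 fibroblast markers 5 were higher, with sums of 39380 to 50640 against 30450 to 38910. The part of either in the result was not tested.

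**Figure D3:**
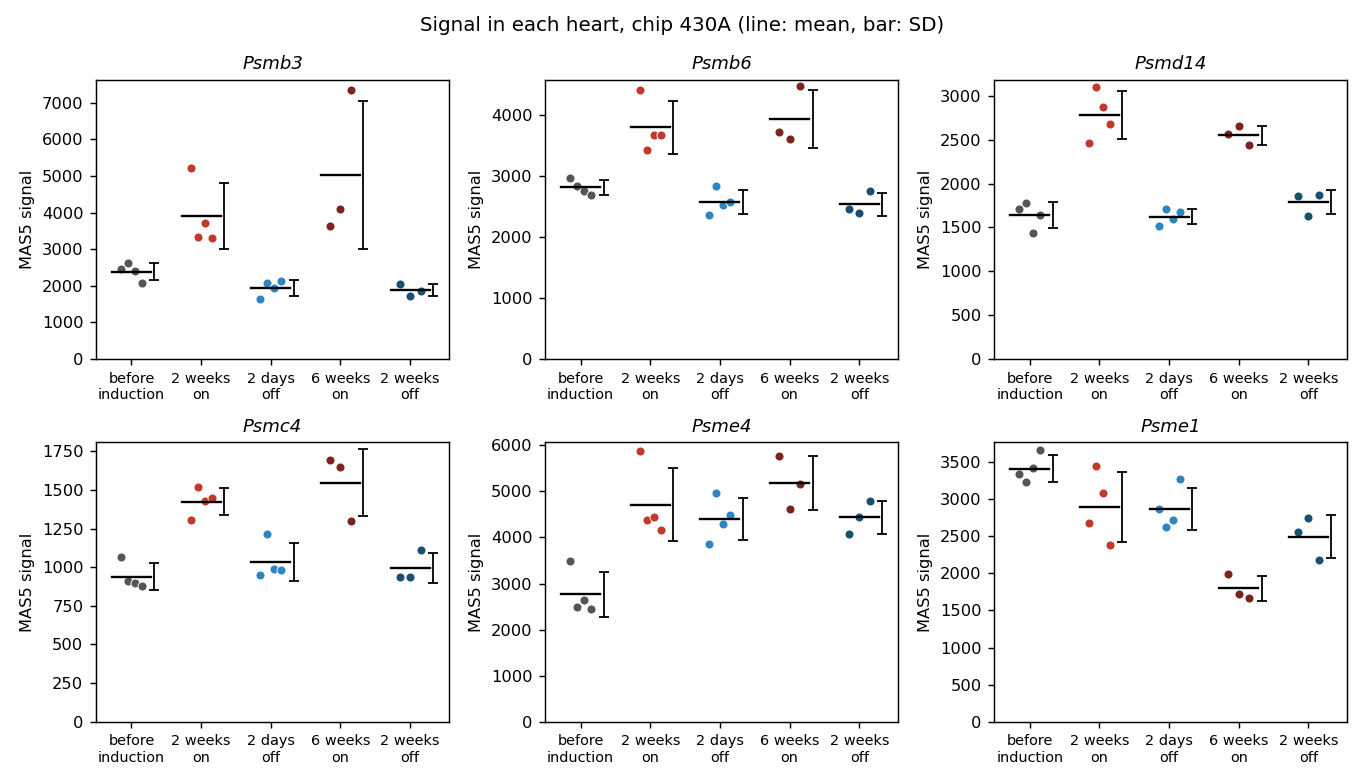
MAS5 signal of 6 genes in each of the 18 hearts on chip 430A by group; each point is 1 heart, the line is the group mean and the bar its SD. Psmb3, Psmb6, Psmd14 and Psmc4 are high in both induced groups, Psme4 stays high after repression, and Psme1 is lowest at 6 weeks of induction, at 1670 to 1994.

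After 2 weeks of repression, 9 of the 40 genes fell and 2 rose relative to 6 weeks of induction, beside 5.53% lower and 7.19% higher of all genes and 7.74% and 9.99% on chip 430A. The fallers were 5 core and 4 regulatory genes. The median log2 change was -0.25 over the core genes and -0.04 over the regulatory genes, beside 0.03 over all genes. The Actb ratio separated these groups too, at 1.24 to 3.71 in the induced and 0.952 to 1.22 in the repressed hearts, and with it as a covariate 6 genes were lower and 0 higher. Psmb3 fell to 2062, 1726 and 1857, below every heart at 6 weeks (-1.33 ± 0.21, limma adjusted p = 0.000427). Psma5 fell to 1364, 1671 and 1674 (-1.07 ± 0.22, limma adjusted p = 0.00307), Psma6 to 3446, 3217 and 3306 (-0.85 ± 0.17, 0.00209) and Psmb6 to 2465, 2396 and 2751 (-0.62 ± 0.12, 0.00181). These values lay in the range of the hearts before induction or below it.

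Psmc4 gave 937.1, 936.5 and 1110 (-0.61 ± 0.13, limma adjusted p = 0.00411) and Psmd14 gave 1862, 1630 and 1871 (-0.50 ± 0.12, 0.00594), both below all 3 induced hearts. Psmc2 fell by 0.67 ± 0.16, Psmd3 by 0.41 ± 0.14 and Psma3 by 0.35 ± 0.11 on the log2 scale (limma adjusted p = 0.00638, 0.0487 and 0.0316). The risers were Psme1, from 1994, 1728 and 1670 to 2563, 2742 and 2184 (0.46 ± 0.14, limma adjusted p = 0.025), and Psmd8, a lid subunit, from 1461, 1738 and 1023 to 1803, 2302 and 2662 (0.68 ± 0.20, 0.0245). The 2 repression comparisons share no heart, but their tests share 1 spread over all 18 arrays. In both comparisons 8 genes fell (Psma3, Psma5, Psma6, Psmb3, Psmb6, Psmc2, Psmc4 and Psmd14), which is 53.3% of the early list and 88.9% of the late one. Over all 14650 genes 310 fell in both, 39.5% of 785 and 38.3% of 810.

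Without heart 3 at 6 weeks 7 genes were lower and 0 higher; Psma3, Psmd3, Psmd8 and Psme1 were then not called. The 7 that stayed, Psma5, Psma6, Psmb3, Psmb6, Psmc2, Psmc4 and Psmd14, were called with each of the 18 hearts left out in turn. Psma3 also lost its call without heart 2 at 6 weeks and without heart 2 or 3 after repression, Psmd8 without heart 2 or 3 after repression, Psme1 without heart 2 at 6 weeks and without heart 1 or 2 after repression, and Psmd3 in 12 of the 18 cases, with highest limma adjusted p of 0.116, 0.137, 0.104 and 0.209. When the model was fitted to only the groups compared, 2 of the 40 genes were lower and 0 higher, beside 3.27% of all genes called in either direction. Most of the late calls thus depended on the spread taken over all groups. Of the endothelial markers 4 were higher after repression, and 2 leukocyte markers, with Lyz2 up by 1.15 on the log2 scale. Summed leukocyte signals were 8330 to 11760 at 6 weeks and 10280 to 14430 after repression. Their part in the result was not tested.

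Against the hearts before induction, 2 genes were higher after 2 weeks of repression and 0 lower, beside 1.5% and 1.21% of all genes. Psme4 gave 4081, 4437 and 4801, all above the hearts before induction (0.69 ± 0.14, limma adjusted p = 0.0112). Psmd1 gave 2311, 2101, 1625 and 1790 before induction and 3074, 2466 and 2872 after repression (0.51 ± 0.13, limma adjusted p = 0.0322). Neither was called without both hearts with Xist signal. Psme4 lost its call without heart 3 after repression (limma adjusted p = 0.0584), and Psmd1 without heart 3 or 4 before induction or heart 1 or 3 after repression (highest 0.141).

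The change over the late repression minus the change over the early one was tested directly, and 0 of the 40 genes passed, beside 0.642% of all genes (limma; 3 of the 40 had an unadjusted p under 0.05). Differences ran from -0.50 to 0.48. The late interval was 2 weeks and the early one 2 days, so the responses differ in length as well as in the time of induction before them.

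The score of the 3 inducible catalytic subunits (Psmb8, Psmb9 and Psmb10) did not share the pattern of the core. Its group means were -0.125 ± 0.117 (SD, n = 4) at 2 weeks of induction, -0.239 ± 0.114 (n = 4) after 2 days of repression, -0.185 ± 0.252 (n = 3) at 6 weeks and -0.301 ± 0.104 (n = 3) after 2 weeks of repression, relative to before induction. The score of the other 14 core genes was 0.356 ± 0.0294, -0.058 ± 0.0807, 0.341 ± 0.0494 and -0.028 ± 0.0692 in the same order. The spread of the inducible subunits at 6 weeks came with signals for Psmb8 of 635.6, 388.2 and 284.9.

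Probe sets of a gene did not always move together, and 21 of the 40 genes had more than 1. The clearest case was Psmd6, a lid subunit. Its representative probe set, 1423697_at, gave 2352, 2386, 2217 and 2189 before induction, 2638, 2542, 2674 and 2509 at 2 weeks, 2328, 2706, 2172 and 2742 after 2 days of repression, 2813, 2788 and 2238 at 6 weeks, and 2665, 2550 and 2641 after 2 weeks of repression. The hearts at 2 weeks of induction and those after 2 weeks of repression lay just above the hearts before induction, the other groups overlapped them, and none of its comparisons was called. The other probe set, 1423696_a_at, gave 1085, 727.8, 858.4 and 631.6 before induction and 1042, 980.6, 1694 and 1244 at 2 weeks. It dropped to 64.7, 51.3, 59.8 and 91.9 after 2 days of repression, was at 966.4, 1584 and 1745 at 6 weeks, and was at 88.6, 95.5 and 86.8 after 2 weeks of repression. All 7 repressed hearts lay at or below 95.5 and all 11 others at or above 631.6. Its log2 changes were -3.44 ± 0.20 over the early and -3.36 ± 0.23 over the late repression (limma adjusted p = 5.5e-09 and 5.55e-08), and -2.89 and -2.62 against the hearts before induction (1.25e-07 and 1.33e-06). The signals of the repressed hearts lay under the threshold of 100, so this probe set passed it only through the groups where it was high, and the size of the change depends on the offset added before taking logs. With an offset of 5% or 20% of the trimmed mean, a setting chosen after seeing the data, it was -3.77 or -2.98 over the early and -3.62 or -2.97 over the late repression. Which transcripts each probe set detects was not analysed here.

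**Figure D4:**
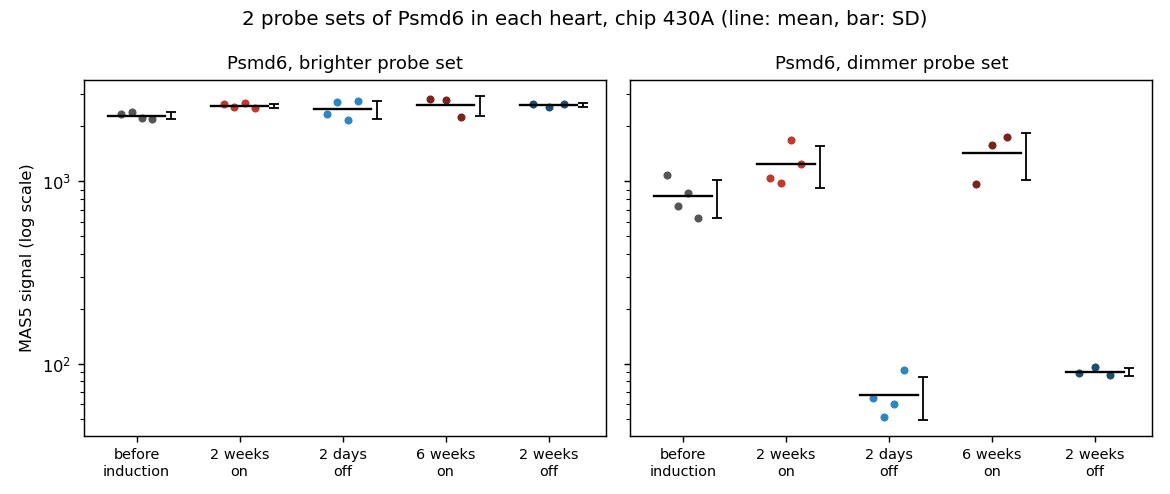
MAS5 signal of both Psmd6 probe sets in each of the 18 hearts on a log axis, chip 430A; each point is 1 heart, the line is the group mean and the bar its SD. The brighter probe set stays between 2172 and 2813 in every group, while the dimmer one lies between 51.3 and 95.5 in the 7 repressed hearts.

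Psme4 had 6 probe sets, 3 on each chip. Its dimmest on chip 430A, 1426824_at, gave 1320, 1864, 1575 and 1858 before induction, 1008, 2320, 1834 and 1687 at 2 weeks and 2887, 3836, 3032 and 3741 after 2 days of repression. It gave 2144, 2178 and 824.4 at 6 weeks and 4085, 3271 and 3755 after 2 weeks of repression. This probe set was higher in the repressed hearts than in the induced ones (log2 change 1.01 ± 0.26 early and 1.20 ± 0.29 late, limma adjusted p = 0.0106 and 0.00818), where the representative one was not called. The remaining one on that chip, 1452211_at, was nearer in brightness to the representative. It was higher than before induction after 2 days of repression (0.68 ± 0.15, limma adjusted p = 0.0123), at 6 weeks (0.54 ± 0.16, 0.0248) and after 2 weeks of repression (0.78 ± 0.16, 0.0112). The 3 probe sets on chip 430B were not called in any comparison, and their changes after 2 weeks of repression against the hearts before induction had the opposite sign: -0.83 for 1445147_at, -0.41 for 1446464_at and -1.61 for 1443116_at (limma adjusted p = 0.0748, 0.64 and 0.0558). In the hearts after 2 weeks of repression 1443116_at gave 17.22, 5.684 and 5.733, under that chip's threshold of 24.5. It passed this threshold only through the groups where it was higher, and the size of its change depends on the offset added before taking logs.

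The second Psmc4 probe set, 1416290_a_at, varied widely before induction (787.7, 446, 333 and 195.4), and moved in the same directions as the first where called: 1.77 ± 0.43 at 6 weeks, -1.30 ± 0.40 over the early and -1.61 ± 0.47 over the late repression (limma adjusted p = 0.00753, 0.0301 and 0.0209). Psmb4 fell in both repression comparisons by its probe set 1438984_x_at (-0.82 and -0.72, limma adjusted p = 0.00769 and 0.0339), while its representative probe set was not called. Psmd13 had a probe set on chip 430B, 1447843_at, that was lower at 6 weeks (-1.47 ± 0.43, limma adjusted p = 0.0481). Its signals there were 53.41, 27.07 and 7.349, the last in heart 3 and under that chip's threshold of 24.5. The other Psmd13 probe sets, the representative among them, were not called in this comparison.

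Most called genes with another probe set were called by the representative one alone. Another probe set past the signal threshold existed for 6 of the 9 genes called at 2 weeks, 9 of 15 in the early repression, 10 of 16 at 6 weeks and 6 of 11 in the late repression. It was called in the same direction for 0, for 1 (Psmc4), for 3 (Psma5, Psmc4 and Psme4) and for 2 of them (Psma6 and Psmc4). At 2 weeks Psmb1 changed by 0.54 by its representative and by -0.07 and -0.46 by the other probe sets, and Psma7 by 0.48 and 0.26. At 6 weeks Psmc2 changed by 0.60 and by 0.23 and -0.0062, and Psmd11 by 0.50 and by -0.25 to 0.28 over its 5 others. The Psmb3 probe set 1417052_at gave 1206, 1540, 1454 and 1038 before induction, 1599, 1742, 1688 and 1519 at 2 weeks and 1519, 1586 and 1195 at 6 weeks, and was not called in any comparison. The Psma6 probe set 1416506_at gave 2278, 2911, 2405 and 2392 before induction, 2422, 3014, 2625 and 2622 at 2 weeks and 1967, 2263 and 1982 at 6 weeks, and was not called either. Its hearts at 6 weeks all lay below those before induction (-0.26 ± 0.11, limma adjusted p = 0.0991), opposite in sign to the representative probe set. The Psma5 probe set 1424681_a_at was called higher at 6 weeks (0.38 ± 0.12, limma adjusted p = 0.0333) and in no other comparison. In heart 3 at 6 weeks the representative probe sets of Psma6 and Psmb3 had the highest signals of all hearts, 8880 and 7342, while these other probe sets were at 1982 and 1195. Of the probe sets of 3 genes present on both chips, that of Psmc5 changed by 0.53 on chip 430A and 0.70 on chip 430B at 2 weeks, that of Psma1 by 0.34 and 0.43, and that of Psmb5 by 0.21 and 0.42, and none of these was called.

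Counted by probe set, 9 of 75 were higher and 0 lower at 2 weeks, beside 2.66% and 2.35% of all 33084 probe sets. In the early repression 18 were lower and 1 higher (4.44% and 5.29%), at 6 weeks 18 were higher and 3 lower (5.65% and 7.54%), and in the late repression 13 were lower and 4 higher (4.41% and 6.48%). Probe sets with the suffix a_at, s_at or x_at, which can match more than 1 transcript, numbered 27 among the members' probe sets on chip 430A. Their median log2 changes were 0.24, -0.36, 0.30 and -0.25 in these 4 comparisons, and those of the 35 plain probe sets were 0.18, -0.02, 0.02 and 0.04. Over all kept probe sets of the chip the corresponding medians were -0.00124, -0.03, -0.05 and -0.02 with such a suffix and -0.07, 0.08, -0.13 and 0.10 without.

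Other genes of the pathway were read from lists of assembly factors, associated proteins, ubiquitin genes, Nfe2l1 pathway genes and antigen processing genes, beside shares of all genes called in either direction of 6.59% at 2 weeks, 10.6% in the early repression, 15.7% at 6 weeks and 12.7% in the late repression. Of 5 measured assembly factors out of 6 listed, none was called at 2 weeks. Psmg1, a chaperone of the alpha ring, was lower after 2 days of repression (-0.39 ± 0.11, limma adjusted p = 0.0144). Psmg2, its partner, was lower at 6 weeks (-1.21 ± 0.24, limma adjusted p = 0.00151) and higher after the late repression (1.14 ± 0.25, 0.00416), and Psmg3 was higher at 6 weeks (0.45 ± 0.15, 0.033). Of 13 measured proteasome-associated proteins out of 15 listed, 2 rose and 2 fell over the early repression. The fallers were the small lid subunit Sem1 (-0.57 ± 0.11, limma adjusted p = 0.0023) and the thioredoxin-like Txnl1 (-0.55 ± 0.13, 0.00644), and the risers Zfand5 (0.53 ± 0.09, 0.000708) and the ubiquitin shuttle Rad23b (0.39 ± 0.13, 0.04). Over the late repression Txnl1 was lower again (-0.73 ± 0.15, limma adjusted p = 0.00241) and Zfand5 and Ubqln1 were higher. At 2 weeks Zfand5 was lower (-0.33) and at 6 weeks Ubqln2 was (-0.71), as the only calls of this list.

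Nfe2l1, the transcription factor that drives proteasome genes when the proteasome is inhibited, had mean signals of 3150 before induction, 3270 at 2 weeks, 3490 after 2 days of repression, 5450 at 6 weeks and 3700 after 2 weeks of repression. It was called higher at 6 weeks (0.79 ± 0.19, limma adjusted p = 0.00525) and not at 2 weeks (0.09, 0.811), and the difference between 6 and 2 weeks was called too (0.71 ± 0.19, 0.0269). Its relative Nfe2l2 was lower at 6 weeks (-0.60 ± 0.12, limma adjusted p = 0.00229) and higher over the late repression (0.62 ± 0.13, 0.00339). Of the 10 measured genes on that list out of 11, 1 rose and 1 fell at 6 weeks, 0 were called at 2 weeks, 1 rose over the early repression (Nploc4, a cofactor of the p97 unfoldase) and 2 rose over the late one. Of the ubiquitin and activation list 1 of 6 genes, Uba6, was measured by this rule, and it was not called. Of 13 measured antigen processing and interferon genes out of 14, 0 were called at 2 weeks and in either repression comparison, and Gbp2 was lower at 6 weeks (-0.99 ± 0.19, limma adjusted p = 0.00145).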

How the data were processed

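RNA of 18 mouse hearts was measured on chips 430A and 430B, 36 arrays. Per the labels, RNA was isolated with the Ultraspec(TM)-II system and labelled with biotin. The deposited values are linear intensity values per probe set, which the authors made with MAS5, per the submitters' processing notes; no version is named there. On each chip the 2% trimmed mean was the same in every array to within 0.006%, at 500.2 on chip 430A and 122.5 on chip 430B, so signals were used as deposited. Arrays have no depth in counts, and their number limits the precision. No batch could be tested, since scan dates were not used here.

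Control probe sets (64 per chip) and probe sets with a mean signal under 20% of the trimmed mean were left out, which kept 15565 of 22690 on chip 430A and 17519 of 22575 on chip 430B. Signals were log2-transformed after adding 10% of the trimmed mean (50.02 and 12.25), which understates the change of dim probe sets. A linear model per chip (limma 3.58.1, R 4.3.3; lmFit, then eBayes with trend) had 1 mean per group and 1 spread over 18 arrays, with p-values adjusted by the Benjamini-Hochberg method within the chip and calls at an adjusted p under 0.05. The model was tested on simulated data. Symbols came from the platform annotation. Per the series design the hearts are of individual mice, and p-values measure the spread between them.

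Named genes were up to 12 called members per direction and comparison by adjusted p, the catalytic subunits and caps whatever their values, members whose probe sets disagreed, and up to 4 called genes of each pathway list. The 5 genes whose promoters are shown were chosen after their values were seen. The members, lists and tests were chosen with earlier results of these data known. Alternatives covered the offset, filter, scaling, samples fitted, replicate block, left-out hearts, Actb ratio, probe sets and p adjustment.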

Additional observations from a re-analysis of the deposited data

Results flagged for a closer look

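In 9 of 120 groups of 4 hearts tested, 1 heart lay apart from the other 3 by Dixon's criterion (gap over range above 0.829); chance does this in about 1 in 20 groups. Before induction these were Psma6 in heart 4 (signal 3356, others 3740 to 3767), Psmd13 in heart 1 (1017, others 697.3 to 739.7), Psmd9 in heart 2 (635.3, others 355.7 to 396.9) and Psme3 in heart 1 (532.3, others 422.4 to 435.7). At 2 weeks of induction they were Psmd10 in heart 1 (92.1, others 172.3 to 185.2), Psmd13 in heart 2 (648.1, others 808 to 840.3), Psme3 in heart 1 (581.8, others 525.7 to 534.2) and Psme4 in heart 1 (5882, others 4158 to 4443). After 2 days of repression it was Psmc4 in heart 2 (1218, others 947.7 to 987.2).

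Psme1 differed between 6 and 2 weeks of induction, with a log2 change of -0.66 (limma adjusted p = 0.00516), and was lower in all 3 hearts at 6 weeks than in all 4 at 2 weeks.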

How the results depend on the processing

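Of 56 calls of single genes, 14 stayed past the threshold in all 31 alternatives and none of the 56 changed direction in any; 35 stayed called with each heart left out in turn. The count of called genes moved by over 1.5 times as follows, and the cause was not tested. Without both hearts with Xist signal it was 2 at 2 weeks of induction, 9 at 6 weeks, and 0 for both repressed groups against the hearts before induction; with heart 3 at 6 weeks left out as well these were 5, 4, 0 and 0, and 7 for the late repression. For the early repressed hearts against those before induction it was 1 with no filter, with arrays scaled to a common median, with the Actb ratio as a covariate and with p adjusted over both chips. For 6 against 2 weeks of induction it was 2 with a filter at 50%, with quantile normalization and with the mean of a gene's probe sets, and 0 with only the groups compared. For the late repressed hearts against those before induction it was 4 with a filter at 50% and with the Actb ratio, 5 with quantile normalization and with gene means, and 1 with median scaling and with only the groups compared. For the late repression it was 2 with only the groups compared and 6 with the Actb ratio. With single hearts left out the counts ran from 6 to 11 at 2 weeks, 10 to 16 for the early repression, 1 to 2 for it against the start, 12 to 17 at 6 weeks, 1 to 2 for 6 against 2 weeks, 7 to 14 for the late repression, 1 to 4 for it against the start, and 0 to 0 for late against early repression. Scaling to a common median moved the median of all genes by over 0.1 at 6 weeks of induction only.

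Replicate numbers are shared between groups but belong to separate mice, and same-numbered hearts had correlations of their deviations from -0.156 to 0.325 on chip 430A (median -0.0182). With the replicate number as a block the counts were 9, 15, 1, 12, 1, 11, 1 and 0, in the order 2 weeks, early repression, the same against the start, 6 weeks, 6 against 2 weeks, late repression, the same against the start, and late against early repression.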
